A study of Rattus norvegicus with 8 samples.

Results

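The transcription factors described here belong to the AP-1, C/EBP, Ets and Klf families and to the related Maf, ATF/CREB, Egr, Nr4a, Runx, Myc and Ier groups. They were taken from the probe annotation of a rat exon array as every gene whose symbol begins with one of these family names, with Nfil3, Spib and the partner proteins Atf7ip2 and Nfatc2ip. This gave 53 of 7830 annotated genes. Of these 53, 50 had at least 1 probe set above the detection filter and were tested among 6961 genes, while Cebpe, Ier2 and Klf5 had none and were not tested. Without the filter, mean log2 intensities of these 3 were 3.39 in EAE and 3.72 in controls for Cebpe, 3.54 in EAE and 3.42 in controls for Ier2, and 2.83 in EAE and 3.0 in controls for Klf5. Other members of these families are not analysed here.

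The rats were female, of the Lewis strain and 16 weeks old, and RNA from the entire spinal cord of each was read on 1 array. In the EAE group (rats 217, 218, 219 and 241), experimental autoimmune encephalomyelitis had been induced by an injection under the skin at the tail base. The injection held 50 µg of myelin basic protein (MBP) from guinea-pig brain in Freund's adjuvant of the incomplete kind, to which M. butyricum had been added at 4.0 mg/ml, and cords were collected at peak disease, 13 days later. The control group (rats 193, 194, 195 and 196) consisted of littermates of the same age that received no injection, so the effects of MBP and of the adjuvant cannot be told apart. EAE is an inflammatory disease in which T cells against myelin enter the central nervous system together with monocytes.

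These factors act at different steps of a cell's response to a signal. Immediate early genes such as Jun, Egr1, Nr4a1 and Ier2 are switched on within minutes by kinases that act on proteins already present, and their transcripts are short-lived. AP-1 is a dimer of Jun proteins with Fos, ATF or Batf proteins, and C/EBP and Ets factors bind with it at the regulatory regions of many genes of macrophages, granulocytes and lymphocytes.

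Of the 50 measured factors, 9 rose in EAE and none fell. These were Elf1, Nfil3, Klf6, Ets1, Cebpb, Atf3, Egr2, Myc and Maf, with measured changes from 0.51 to 1.65 on the log2 scale, and 4 of them rose by at least 1. The test was limma's moderated test with Benjamini-Hochberg adjustment over all 6961 genes and a threshold of 0.05. The 9 were 18% of the measured factors. Among the 9, the call of Atf3 rests on a probe set that met the detection filter only through the EAE arrays. Among all genes tested 13.7% rose and 17.4% fell, together 31.1%, while 6.39% rose and 1.16% fell by at least 1. The count of 0 for falls compares with 3 factors that were lower at an unadjusted p under 0.05 (Mycn, Atf7ip2 and Fosl1), and 13 were higher by that measure. Atf7ip2 was read in part by a probe set that met the detection filter only through the control arrays, so it had to differ. The median change was -0.01 over the factors and -0.11 over all genes tested, and 25 factors had a higher and 25 a lower mean in EAE. All 9 risen factors were higher on every EAE array than on every control array, a separation that 14.1% of all genes showed. Crem was the only factor lower on every EAE array than on every control array, which 19.2% of all genes showed, and it did not pass the test. In either direction, 33.2% of all genes had groups that did not overlap.

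**Figure D1:**
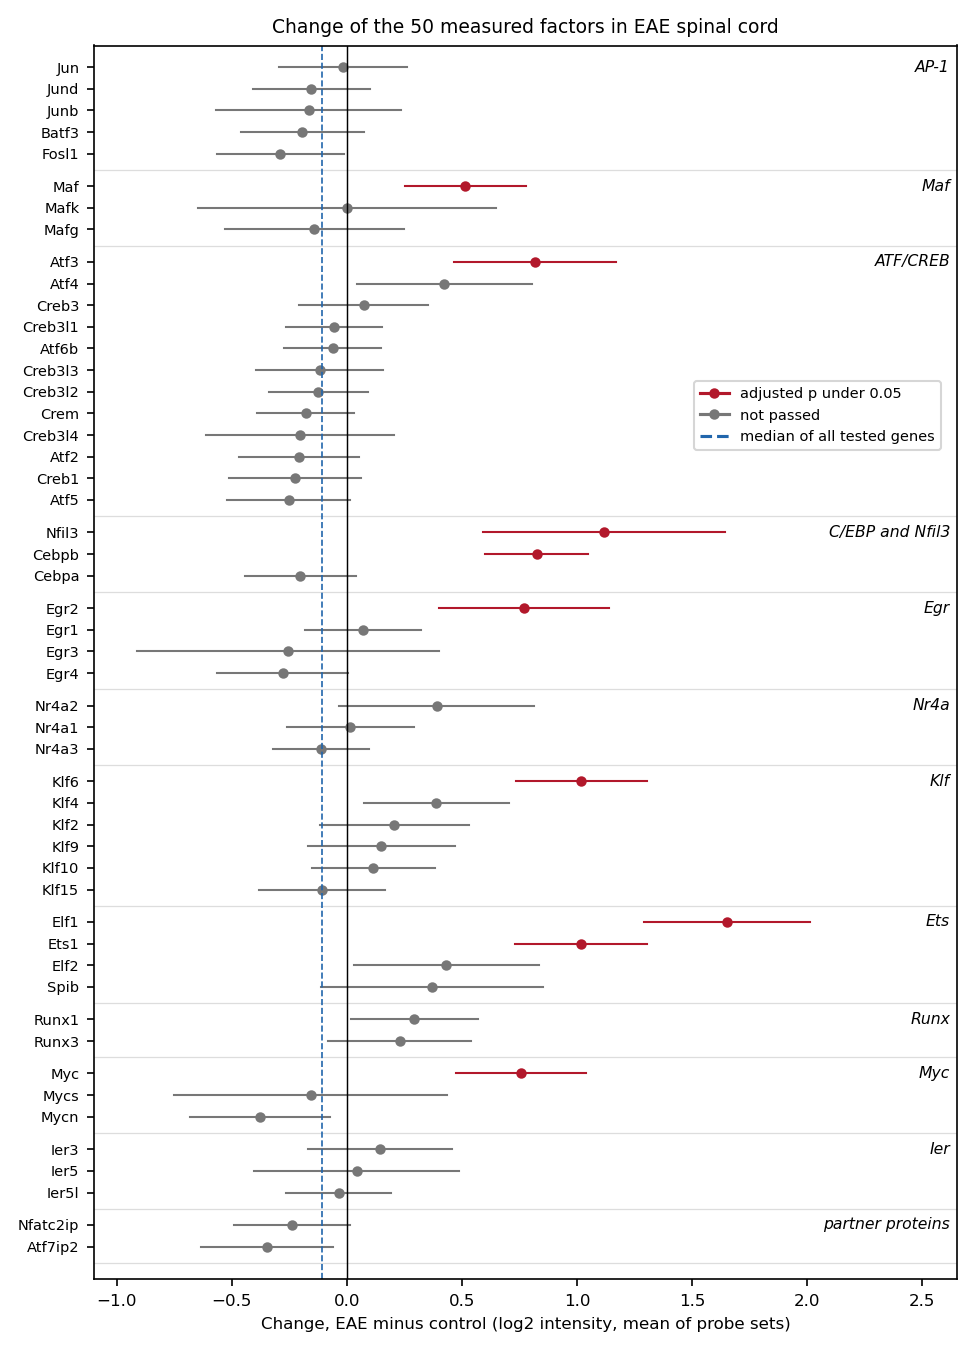
Change of each of the 50 measured factors, EAE minus control, on the log2 scale (x axis), grouped by family and ordered by size within it. Points are limma estimates, bars their 95% confidence intervals, red points passed the adjusted threshold, and the dashed line marks the median change of all genes tested (-0.11). The 9 red points lie between 0.51 and 1.65 in 7 of the families, and no AP-1, Nr4a, Runx, Ier or partner gene is red.

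A gene's value on an array is the mean log2 intensity of its measured probe sets, each of which reads an exon or part of one. Levels of different genes are therefore not comparable, and only the arrays of 1 gene are set against each other. In whole tissue, more cells of a type and more RNA per cell cannot be told apart. Marker lists moved with the groups, while over all genes tested 13.7% rose and 17.4% fell. All 11 measured markers of monocytes, macrophages and microglia rose, with list means of 8.23 to 8.42 on EAE arrays and 5.52 to 5.68 on control arrays, and 3 of them were at background in controls. Of 9 T cell markers 7 rose (5.98 to 6.14 in EAE, 4.18 to 4.64 in controls), with 6 at background in controls. Of 7 NK cell markers 2 rose and 1 fell (5.43 to 5.81 in EAE, 4.57 to 5.25 in controls), with 3 at background in EAE and 4 in controls. Of 2 measured B cell markers 1 rose, with list means of 5.07 to 5.38 in EAE and 4.79 to 5.22 in controls. None of the 4 neutrophil markers passed (4.54 to 4.74 in EAE, 4.30 to 4.81 in controls), and 3 of the 4 were at background in both groups. Among markers of the cord itself, 6 of 10 neuronal and 6 of 11 oligodendrocyte markers fell, with list means of 8.90 to 9.27 and 8.16 to 8.41 in EAE against 9.39 to 9.76 and 8.48 to 8.93 in controls, high on every array of this tissue. Astrocyte markers had 3 rises and 1 fall among 7 (9.12 to 9.48 in EAE, 8.81 to 9.44 in controls), and endothelial markers 2 falls among 5 (6.95 to 7.20 in EAE, 7.14 to 7.55 in controls). Of 3 red blood cell markers 2 fell (5.47 to 6.25 in EAE, 6.98 to 7.84 in controls). Among the risen markers, the control means of Ccr2 (3.85), Cd3d (3.77), Cd8b (3.90), Cd28 (3.56) and Klrk1 (3.42) lay under the filter value of 3.98. These genes could meet the filter largely through the EAE arrays, so their rises were in part set by it. The part of the marker shifts in the changes of the factors was not tested.

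In the Ets family Elf1 and Ets1 rose, and Elf2 and Spib did not pass. Ets proteins bind a purine-rich GGA core, and Elf1 and Ets1 are best known from lymphocytes, where they act on genes of T cell receptor and cytokine signalling. Elf1 had log2 intensities of 7.69, 7.84, 7.42 and 7.66 in the EAE rats, against 6.25, 6.19, 5.57 and 6.0 in the controls. Every EAE array lay more than 1 above every control array. The rise was 1.65 ± 0.16 (SE, 95% interval 1.29 to 2.01), which is 3.14-fold, with a limma adjusted p of 4.16e-05. All 10 measured probe sets of Elf1 rose, by 0.86 to 3.23, and the call of the smallest was lost when single arrays (all but EAE 219 and control 193) were left out. The steepest of them, 6372506, read 9.29, 9.62, 9.08 and 8.82 in EAE and 6.95, 6.44, 5.03 and 5.46 in controls. Another, 5985866, met the detection filter on 4 EAE arrays but only 1 control array.

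Ets1 read 5.88, 6.02, 5.54 and 5.82 in EAE, against 4.84, 4.98, 4.64 and 4.74 in controls, close to background in the controls. Background was read from 1049 olfactory receptor genes, each averaged over all its probe sets without the filter and over the arrays of a group. Of these gene means 95% lay at or under 4.70 in EAE and 4.77 in controls. Values of the factors were averaged over filtered probe sets only. Ets1 rose by 1.02 ± 0.13 (95% interval 0.73 to 1.30, adjusted p 0.000253), 2.02-fold, without overlap between the groups. Of its 9 measured probe sets 6 rose, and the changes ranged from 0.24 to 1.60. The calls of 2 of these were lost without EAE 217, EAE 241 or control 196, and that of 1 of them also without EAE 218. Elf2, a close relative of Elf1, read 7.36, 6.96, 7.09 and 7.34 in EAE and 7.08, 6.70, 6.28 and 6.98 in controls. Its groups overlapped, and the change of 0.43 ± 0.18 did not pass (adjusted p 0.0973), although 2 of its 14 probe sets rose, by 1.06 and 1.46. The call of the second was lost without EAE rat 217 and without control rat 196. Spib, a relative of PU.1 known from B cells and plasmacytoid dendritic cells, was at background in both groups and changed by 0.37 ± 0.22 (adjusted p 0.226). A single Spib probe set, 5709849, rose, with 6.11, 5.64, 6.05 and 6.0 in EAE and 5.06, 4.95, 4.30 and 5.31 in controls (1.04 ± 0.23, adjusted p 0.0108). With the filter at the 50th percentile this probe set alone was left, and the gene passed with its change of 1.04 (adjusted p 0.00332). It met that filter through the EAE arrays alone, so it had to differ.

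Klf factors are zinc finger proteins that bind GC-rich and CACCC sequences. Klf6, an early response gene of injured and activated cells, read 5.91, 6.11, 5.75 and 5.91 in EAE, against 4.74, 4.95, 5.16 and 4.75 in controls. The lowest EAE array lay above the highest control array. Klf6 rose by 1.02 ± 0.13 (95% interval 0.73 to 1.30), 2.02-fold, with an adjusted p of 0.000235, and 4 of its 5 probe sets rose, the smallest rise not holding without most single arrays. Of the risen probe sets, 5873800 and 6470750 met the detection filter mainly through the EAE arrays, with 2 and 1 control arrays over it. The other 5 measured Klf genes did not pass. Klf4, a factor of monocyte differentiation and of endothelial quiescence, read 4.98, 5.34, 5.25 and 5.09 in EAE and 4.49, 4.85, 5.07 and 4.70 in controls, with a change of 0.39 ± 0.14 (95% interval 0.07 to 0.70) and an adjusted p of 0.0625. Its groups overlapped by 1 control array. Klf4 passed in 4 of 16 alternatives, with the largest change of 1.29 (adjusted p 0.000357) under a filter at the 50th percentile, where only 1 probe set was left that met the filter through the EAE arrays alone and so had to differ, and it also passed without control 195 (0.48, adjusted p 0.0178). Klf2, a factor of endothelial and T cell quiescence, read 5.27, 5.30, 5.52 and 5.13 in EAE and 5.36, 5.10, 5.17 and 4.76 in controls (0.21 ± 0.14, 95% interval -0.12 to 0.53, adjusted p 0.313). Klf9, Klf10 and Klf15 changed by no more than 0.15 in either direction and did not pass, although Klf10 passed with 0.60 (adjusted p 0.0335) under the filter at the 50th percentile. There only probe set 6549142 of Klf10 was left, which met the filter mainly through the EAE arrays. In the main limma test this probe set did not pass (adjusted p 0.0813).

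In the C/EBP group, basic leucine zipper factors of myeloid and acute phase genes, Cebpb and the related repressor Nfil3 rose while Cebpa did not pass. Nfil3, also called E4BP4, is needed for NK and innate lymphoid cell development. It read 6.39, 6.60, 6.72 and 7.26 in EAE, against 5.88, 5.80, 4.99 and 5.84 in controls. The control of rat 195 lay well under the other controls, and all EAE arrays were above all controls. The rise was 1.12 ± 0.24 (95% interval 0.59 to 1.64, 2.17-fold, adjusted p 0.00556), with only 2 probe sets measured, of which 1 rose by 1.84 while the other changed by 0.40 without passing. With no filter on dim probe sets the rise of Nfil3 was 0.66. Cebpb, the C/EBP factor of macrophage activation, read 5.55, 5.75, 5.79 and 5.70 in EAE, against 4.79, 4.80, 4.93 and 4.98 in controls. Both groups were tight at the gene level and did not overlap. The 6 probe sets averaged varied more among controls (SD 0.16 to 0.70, against 0.10 for the gene). The rise was 0.82 ± 0.10 (95% interval 0.60 to 1.05, 1.77-fold, adjusted p 0.000197). The size depended on which probe sets were averaged, with 0.50 by the median of the probe sets and 2.26 with the filter at the 50th percentile, and it passed in both cases. That filter left only probe sets 6397806 and 6417368 of Cebpb. The first met it through the EAE arrays alone, so it had to differ, and the second met it mainly through them. Cebpa, the factor of early granulocyte and monocyte commitment and of liver and fat, changed by -0.20 ± 0.11 (adjusted p 0.180).

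None of the 5 AP-1 genes analysed here (Jun, Junb, Jund, Fosl1 and Batf3) passed the test. Fosl1 was the only Fos gene and Batf3 the only Batf gene among them, so the result does not cover the others. Their 5 changes ran from -0.29 to -0.02. Jun, the main partner of Fos proteins, read 5.98, 6.13, 5.97 and 6.18 in EAE, against 5.83, 5.98, 6.24 and 6.27 in controls. The EAE values lay inside the range of the controls. The difference was -0.02 ± 0.12, with a 95% interval of -0.29 to 0.26 and an adjusted p of 0.936. Junb, a Jun protein of T helper cells and macrophages, read 4.43, 4.63, 4.74 and 4.17 in EAE and 4.44, 4.90, 4.97 and 4.33 in controls, at background in both groups (-0.17 ± 0.18, 95% interval -0.57 to 0.23, adjusted p 0.519). Jund, the most constantly expressed Jun protein, read 5.06, 4.86, 4.97 and 4.98 in EAE and 5.05, 5.12, 5.37 and 4.94 in controls (-0.15 ± 0.11, 95% interval -0.41 to 0.10, adjusted p 0.337). Both of these Jun genes had overlapping groups. Fosl1, a Fos protein of late and sustained signalling, read 5.76, 5.63, 5.97 and 5.77 in EAE and 5.89, 6.18, 6.27 and 5.94 in controls. It had the lowest change of the AP-1 genes (-0.29 ± 0.12, 95% interval -0.57 to -0.01), and its adjusted p was 0.102. Batf3, the Batf protein of cross-presenting dendritic cells, was at background in both groups (-0.19 ± 0.12, adjusted p 0.246). Among these 5 genes the highest upper bound of a 95% interval was 0.26, that of Jun. This bound holds for the mean over 8 probe sets of Jun, dim ones among them. Its probe sets brightest in controls, 6685920 and 6285488, each changed by 0.36 (SE 0.23 and 0.22) without passing.

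In the Maf family, whose small members pair with other leucine zipper proteins and whose large member c-Maf drives Il10 and macrophage genes, Maf rose and Mafg and Mafk did not pass. Maf read 6.54, 6.77, 6.84 and 6.78 in EAE, against 6.11, 6.11, 6.46 and 6.20 in controls. The groups parted by a small margin, between the lowest EAE array and control 195. The rise was 0.51 ± 0.12 (95% interval 0.25 to 0.78, 1.43-fold, adjusted p 0.00852), and with the median of the probe sets Maf did not pass (0.27, adjusted p 0.228). The ATF/CREB family, which answers to cAMP, amino acid shortage and stress of the endoplasmic reticulum, had 1 rise among 12 genes. Atf3, a stress gene induced in injured neurons and activated macrophages, read 4.64, 5.14, 4.55 and 4.75 in EAE, against 3.62, 4.06, 4.08 and 4.04 in controls. All controls were at background, and all EAE arrays lay above them, though rats 217 and 219 were still under the EAE limit of 4.70. The measured change was 0.82 ± 0.16 (95% interval 0.47 to 1.17, adjusted p 0.00339). The mean of 4.77 in EAE was no higher than the background limit of the controls, so no fold is given. Of the 3 Atf3 probe sets 1 rose, and the others changed by -0.20 and 0.30 without passing. This probe set, 6051755, read 5.34, 5.61, 5.26 and 4.44 in EAE and 2.68, 3.20, 2.74 and 2.61 in controls, and passed the detection filter only through the EAE arrays, so it had to differ, and the gene's call rests on it. With the median of the probe sets Atf3 did not pass (0.43, adjusted p 0.248). Atf4, the effector of the integrated stress response, did not pass (0.42 ± 0.17, adjusted p 0.0878), and the other 10 ATF/CREB genes changed by -0.25 to 0.07. Crem, which encodes cAMP-responsive activators and repressors, read 6.37, 6.56, 6.55 and 6.40 in EAE and 6.62, 6.70, 6.59 and 6.69 in controls, apart by a small margin and not past the test (-0.18 ± 0.09, adjusted p 0.177).

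The Egr, Nr4a and Ier families hold most of the other immediate early genes. Egr2 was their only rise. It is a zinc finger factor that directs myelination in Schwann cells and restrains activated T cells, and read 5.44, 5.20, 5.21 and 5.11 in EAE, against 4.63, 4.32, 4.85 and 4.09 in controls. All EAE arrays were above the controls, whose mean was at background. The measured rise was 0.77 ± 0.17 (95% interval 0.40 to 1.14, adjusted p 0.00598). With control values under the background limit set to that limit, Egr2 had a 1.37-fold higher mean in EAE, without allowance for sampling error. With the filter at the 50th percentile its rise was 1.23. That filter left only probe set 6344195 of Egr2, whose groups overlapped by control 195 (6.19, against 6.07 in EAE 219). Egr1, the Egr gene of neuronal activity and growth factor signals, read 6.47, 6.14, 6.28 and 6.25 in EAE and 6.22, 6.02, 6.32 and 6.30 in controls. Its groups overlapped, and its difference was 0.07 ± 0.11 (95% interval -0.18 to 0.32, adjusted p 0.683). Egr3 was at background and varied widely within both groups, with 4.40, 3.82, 5.05 and 3.88 in EAE and 4.34, 4.53, 5.17 and 4.16 in controls (-0.26 ± 0.29, adjusted p 0.544). Egr4 changed by -0.28 ± 0.13 without passing (adjusted p 0.126).

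The Nr4a genes encode orphan nuclear receptors that are induced by antigen receptor and cAMP signals. Nr4a1 read 4.62, 4.95, 4.81 and 4.65 in EAE and 4.56, 4.77, 4.97 and 4.67 in controls, with the EAE values inside the range of the controls (0.01 ± 0.12, 95% interval -0.26 to 0.29, adjusted p 0.943). Nr4a2, which is also needed by dopamine neurons, read 6.23, 6.17, 6.11 and 6.33 in EAE and 6.26, 5.77, 5.26 and 5.99 in controls (0.39 ± 0.19, adjusted p 0.148). The spread lay in the controls, of which rat 195 was the lowest. Nr4a3 read 5.45, 5.44, 5.48 and 5.43 in EAE and 5.42, 5.61, 5.66 and 5.56 in controls (-0.11 ± 0.09, adjusted p 0.396). Of the Ier genes, Ier3, an inhibitor of cell death under NF-kappaB, read 5.44, 5.90, 5.30 and 5.33 in EAE and 5.39, 5.40, 5.24 and 5.38 in controls. Only EAE rat 218 stood above the controls by a wide margin, and the difference did not pass (0.14 ± 0.14, adjusted p 0.477). Ier5 and Ier5l changed by 0.04 and -0.04.

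Myc, the regulator of cell growth and ribosome production, read 5.58, 5.90, 5.80 and 5.88 in EAE, against 4.79, 4.99, 5.13 and 5.23 in controls, without overlap. It rose by 0.76 ± 0.13 (95% interval 0.48 to 1.04, 1.69-fold, adjusted p 0.00143). When dim probe sets were kept the rise was 0.35, and with the median of the probe sets Myc did not pass (0.61, adjusted p 0.0541). Mycn, its relative in neural progenitors, went the other way without passing (-0.38 ± 0.14, 95% interval -0.68 to -0.08, adjusted p 0.0588), and Mycs, read by 1 probe set, changed by -0.16. The Runx factors of blood cell development did not pass at the gene level. Runx1 read 5.54, 5.48, 5.88 and 5.76 in EAE and 5.24, 5.56, 5.34 and 5.36 in controls (0.29 ± 0.12, adjusted p 0.100), and Runx3 changed by 0.23 ± 0.14 (adjusted p 0.246). The partner proteins Atf7ip2 and Nfatc2ip, both at background in both groups, changed by -0.35 ± 0.13 and -0.24 ± 0.11 (adjusted p 0.0639 and 0.134). Of the 2 measured probe sets of Atf7ip2, 6397759 met the detection filter only through the control arrays, so it had to be lower in EAE.

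**Figure D2:**
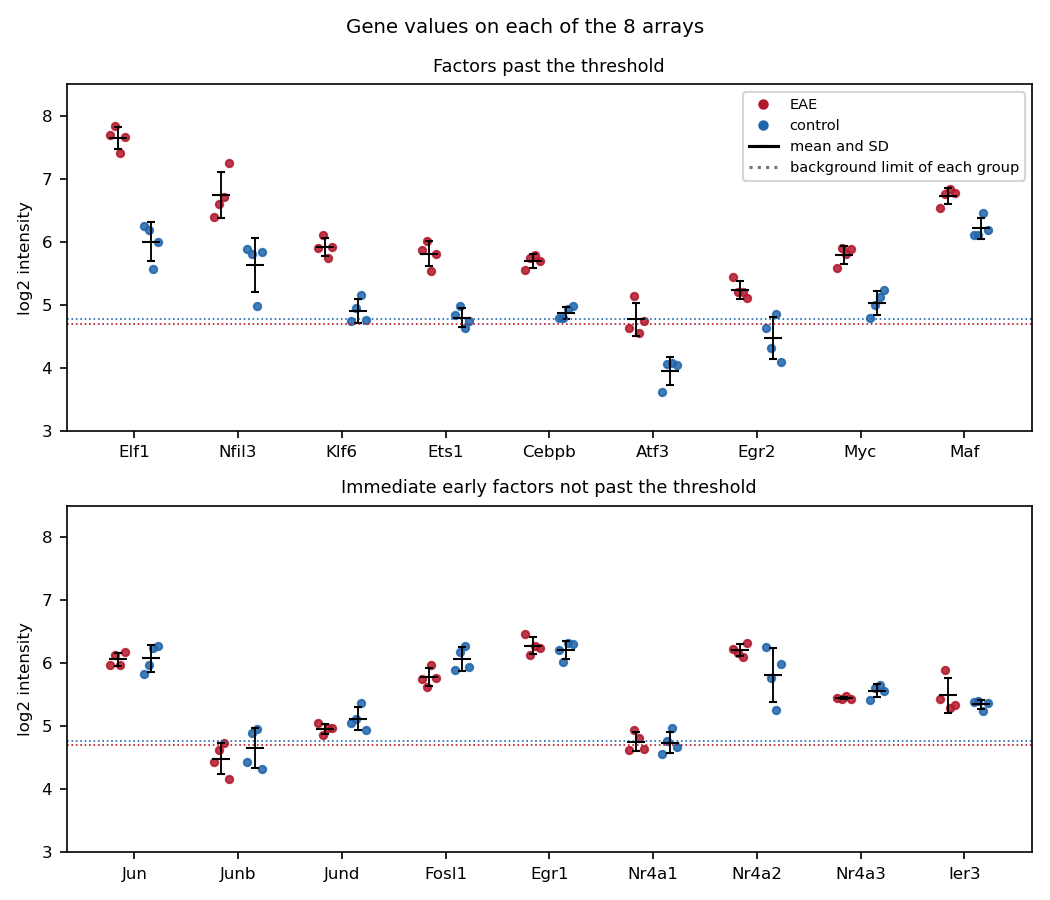
Gene values on each of the 8 arrays (y axis, log2 intensity, mean of measured probe sets), with EAE left of control for each gene and bars for the mean and SD of 4 rats. Dotted lines mark the background limits of 4.70 in EAE and 4.77 in controls. The upper panel holds the 9 risen factors, whose groups do not overlap, and the lower panel holds 9 factors of the immediate early and AP-1 type that did not pass, whose groups overlap.

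The low level of several factors limits what the arrays show. Both group means were at or under the background limit for 6 factors (Atf7ip2, Batf3, Egr3, Junb, Nfatc2ip and Spib), so a change could not be seen well there. For 5 factors (Atf3, Egr2, Klf10, Nr4a1 and Runx3) only the control mean was at background, and for Mycn only the EAE mean. The other 38 lay above it in both groups.

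Because the array reads genes exon by exon, the probe sets of a gene were compared with each other. The 50 measured factors had 288 measured probe sets, of which 36 (12.5%) rose and 7 (2.43%) fell, against 10.1% and 10.1%, together 20.2%, of all probe sets. A test of exon usage, limma's diffSplice F test, asks whether the probe sets of a gene change by unequal amounts. It could be made for 43 factors with at least 3 measured probe sets and was passed by 15, or 34.9%, against 26.6% of all genes so tested. Of these 15, 7 also rose as genes and 8 did not. Among the 7 is Atf3, whose probe set 6051755 passed the detection filter only through the EAE arrays. This probe set had to differ, so its place among the 36 and the exon usage call of Atf3 were partly set by the filter. The cause of unequal changes was not tested. The exon usage calls of Atf5, Egr2, Ets1, Ier5 and Nr4a3 were each lost when some single array was left out.

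Cebpb had the smallest adjusted p for exon usage among the factors (1.21e-09). Its probe set 6397806 read 7.11, 6.79, 7.39 and 7.56 in EAE, against 3.22, 4.13, 4.61 and 4.77 in controls, a rise of 3.03 ± 0.33 (adjusted p 0.000113). A second, 6417368, read 5.62, 6.12, 6.60 and 5.96 in EAE and 4.14, 4.45, 5.40 and 4.35 in controls (1.49 ± 0.30). The probe set that was brightest in controls, 6669084, went the other way without passing, with 5.04, 4.98, 5.14 and 5.06 in EAE and 6.05, 5.37, 4.69 and 5.81 in controls (-0.42 ± 0.27, adjusted p 0.303). The gene change of 0.82 is thus a mean over 6 probe sets whose changes run from -0.42 to 3.03, of which 3 rose, the smallest not holding without most single arrays.

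In Maf and Myc only 1 probe set rose. Maf's probe set 6463763 read 9.65, 10.19, 9.66 and 9.80 in EAE, against 8.54, 8.18, 8.66 and 8.07 in controls (1.46 ± 0.20, adjusted p 0.0007), while the other 3 did not pass. Myc's probe set 6410640 read 5.70, 6.37, 6.01 and 6.01 in EAE, against 4.66, 4.58, 3.70 and 4.45 in controls (1.68 ± 0.24, adjusted p 0.000909), and its other 2 did not pass. In Egr2 the changes were spread, from -0.12 to 1.5 over 6 probe sets of which 2 rose, and probe set 6430976 read 6.30, 5.16, 5.77 and 5.57 in EAE and 4.57, 3.97, 4.04 and 4.23 in controls (1.5 ± 0.25, adjusted p 0.00234). Probe sets 6463763, 6410640 and 6430976 did not overlap between the groups. In Ets1 the changes were more even, and probe set 6102759 rose most (1.60 ± 0.19), with 6.18, 5.60, 5.49 and 5.72 in EAE and 4.03, 4.34, 4.07 and 4.14 in controls. Nfil3, with 2 probe sets, could not be tested for exon usage.

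Several factors that did not pass as genes held a probe set that did. Runx1, exon usage adjusted p 0.000418, had a probe set, 6682291, with 6.40, 6.71, 6.99 and 6.83 in EAE, against 4.55, 5.13, 5.23 and 5.34 in controls (1.67 ± 0.22, adjusted p 0.000458). Its other 5 probe sets did not pass. Klf4 (exon usage adjusted p 0.00537) had probe set 5857420 with 5.71, 6.24, 6.01 and 6.13 in EAE, against 4.65, 5.01, 4.32 and 4.96 in controls (1.29 ± 0.21, adjusted p 0.00178). Both of these probe sets were higher on every EAE array than on any control array. In the opposite direction, Atf5, a relative of Atf4, had probe set 6083710 with 4.55, 5.35, 4.52 and 4.59 in EAE, against 5.89, 6.03, 6.25 and 5.59 in controls (-1.19 ± 0.23, adjusted p 0.00566). Egr1 also had a probe set that fell, 5930996, with 5.25, 5.96, 5.47 and 5.27 in EAE and 6.15, 6.45, 6.81 and 6.25 in controls (-0.93 ± 0.22, adjusted p 0.0153). Without EAE rat 217 its adjusted p was 0.0503. Other Egr1 probe sets went the other way without passing, with 0.80 ± 0.28 for 6370899 and 0.79 ± 0.26 for 6728822 (adjusted p 0.0677 and 0.0575). The remaining factors past the exon usage test were Atf6b, Nr4a3, Ier5 and Ier5l, none with a probe set change of 1 or more.

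**Figure D3:**
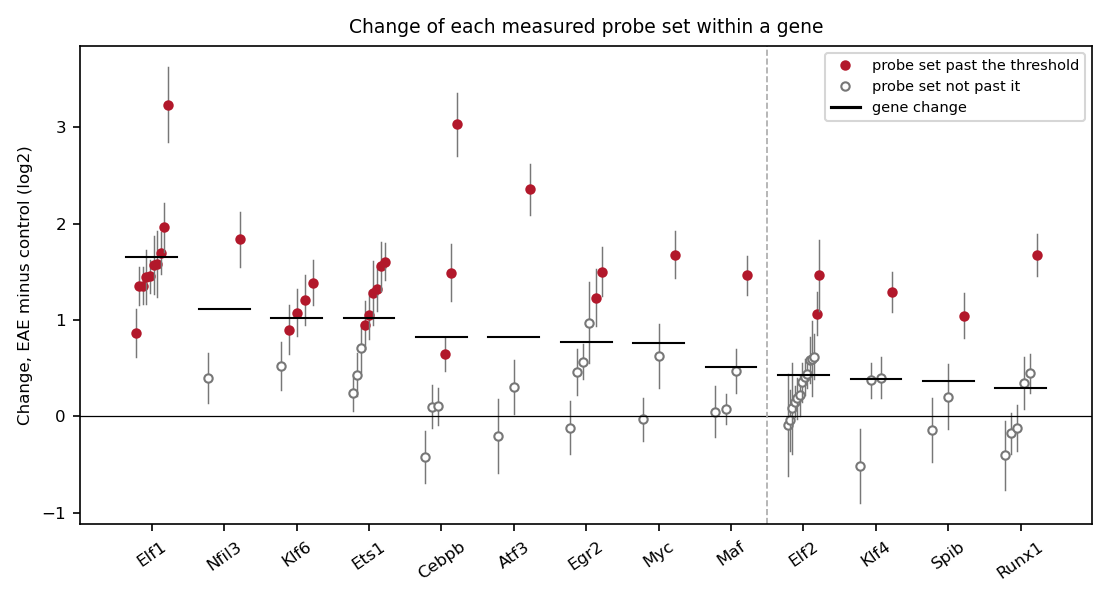
Change of every measured probe set (y axis, EAE minus control, log2, with SE bars) in 13 factors, with the gene change as a horizontal bar. Red points passed the adjusted threshold, and the dashed line parts the 9 risen factors from 4 that did not pass as genes. All 10 Elf1 points are red, while in Cebpb, Atf3, Myc, Maf and Runx1 the highest point lies between 1.46 and 3.03 and the lowest at or below 0.05.

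Promoter sequences were compared because related genes differed, with Egr2 and Klf6 past the test and Egr1 and Jund not. RefSeq promoters (GRCr8 assembly, 250 bases before to 50 after the start of transcription) were found for 43 of the 53 factors. They were rich in G and C, with a median of 62.3%, against 51.7% over 33469 rat promoters. Searched on both strands were AP-1 TGANTCA, CRE TGACGTCA, C/EBP TTGCNNAA, Ets CCGGAAGT, STAT TTCNNNGAA and Egr GCGNGGGCG. NF-kappaB sites and the CArG box, which binds serum response factor, were searched by their usual consensus. Shown are the promoters of the 3 risen factors with a match and that of Jund, which did not pass and held the most matches, with the matches in capitals.
Elf1: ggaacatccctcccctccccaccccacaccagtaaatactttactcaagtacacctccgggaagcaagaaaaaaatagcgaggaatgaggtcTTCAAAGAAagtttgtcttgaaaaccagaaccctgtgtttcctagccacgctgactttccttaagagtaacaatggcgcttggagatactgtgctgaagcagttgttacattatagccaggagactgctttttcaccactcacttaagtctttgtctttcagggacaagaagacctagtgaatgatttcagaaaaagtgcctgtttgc
Klf6: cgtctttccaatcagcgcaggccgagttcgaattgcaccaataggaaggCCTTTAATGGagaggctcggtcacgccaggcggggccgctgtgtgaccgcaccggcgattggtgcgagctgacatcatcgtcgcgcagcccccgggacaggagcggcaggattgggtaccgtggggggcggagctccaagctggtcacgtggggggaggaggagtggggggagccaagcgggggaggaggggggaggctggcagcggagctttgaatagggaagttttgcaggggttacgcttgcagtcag
Egr2: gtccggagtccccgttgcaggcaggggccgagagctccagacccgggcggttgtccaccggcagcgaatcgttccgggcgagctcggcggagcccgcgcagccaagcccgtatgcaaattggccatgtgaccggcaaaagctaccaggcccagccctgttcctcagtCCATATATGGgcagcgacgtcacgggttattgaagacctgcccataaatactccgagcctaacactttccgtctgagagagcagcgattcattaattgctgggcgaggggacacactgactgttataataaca
Jund: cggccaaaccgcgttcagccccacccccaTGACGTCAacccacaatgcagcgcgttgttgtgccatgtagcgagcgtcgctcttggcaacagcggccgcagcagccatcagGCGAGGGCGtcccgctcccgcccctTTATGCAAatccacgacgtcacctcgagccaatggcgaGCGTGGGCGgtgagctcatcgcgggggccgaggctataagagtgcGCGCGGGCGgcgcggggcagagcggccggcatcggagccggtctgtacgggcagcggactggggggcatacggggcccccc

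Elf1, at chr15:61353776-61354075 on the plus strand, holds a STAT motif at -158 to -150 from the start site. Klf6 (chr17:69458429-69458728, minus strand) and Egr2 (chr20:21054392-21054691, minus strand) each hold a CArG box, at -201 to -192 and -83 to -74. Jund (chr16:18769722-18770021, minus strand) holds a CRE, a C/EBP motif and 3 Egr motifs. Egr1 holds 2 CArG boxes and did not pass. Of the 43 promoters of the factors, 3 (6.98%) held a CArG box, against 1.64% of all promoters, 3 (6.98%) a CRE, against 1.83%, and 5 (11.6%) an NF-kappaB site, against 4.18%. STAT motifs were in 6 (14.0%), against 8.87%, C/EBP motifs in 5 (11.6%), against 10.6%, AP-1 motifs in 4 (9.30%), against 7.33%, Egr motifs in 4 (9.30%), against 4.98%, and the Ets motif in 1 (2.33%), against 3.81%. No promoter of the 6 risen factors with an entry held an AP-1, CRE, C/EBP, Ets, NF-kappaB or Egr match in this window. These motifs were in 1.83% to 10.6% of all promoters, so 6 promoters are too few to read their absence as a trait. A match describes the letters only.

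A list of kinases and phosphatases upstream of AP-1, CREB and Ets proteins, together with coactivators such as Crebbp and Ep300, had 20 of 37 genes measured. Of these 6 rose and 1 fell, against 13.7% risen and 17.4% fallen of all genes tested. The median change was 0.14, against -0.11 over all genes tested, and 2 (Dusp2 and Dusp6) were at background in controls. List means were 6.91 to 7.04 in EAE and 6.52 to 6.77 in controls. Map3k8, the kinase that joins Toll-like receptors to ERK, rose by 1.82 ± 0.11 (adjusted p 8.76e-07) and Mapkapk2, a kinase under p38, by 1.19 ± 0.15. Dusp6, a phosphatase of ERK induced by ERK signalling, rose by a measured 1.25 ± 0.17. With control values under the background limit set to it, its mean was 1.74-fold higher in EAE, without allowance for sampling error. Mapk9, a JNK kinase of Jun, fell by 0.37 ± 0.12 (adjusted p 0.0444).

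Genes known in mouse or human cells to be driven by PU.1, C/EBP or AP-1 had 22 of 34 measured, of which 19 rose and none fell by limma, with a median change of 2.38. Over all genes tested 13.7% rose and 17.4% fell, with a median change of -0.11. List means were 7.83 to 8.11 in EAE and 5.27 to 5.44 in controls, and 11 of the 22 were at background in controls. Btk, with a control mean of 3.88 under the filter value of 3.98, could meet the filter largely through the EAE arrays. Lcn2, an iron-binding acute phase protein, and Cybb, the oxidase subunit of phagocytes, were among those at background in controls. With control values under the background limit set to it, their means were 56.3-fold and 38.6-fold higher in EAE, without allowance for sampling error. The measured changes were 6.28 ± 0.15 and 5.50 ± 0.15. Ccl2, a monocyte chemoattractant above background in both groups, rose by 4.57 ± 0.25. Il6, Mmp9 and Mmp3 did not pass, with changes of 0.17, -0.18 and -0.03. Many of these genes are also markers of macrophages, whose list rose by a median of 2.49, and the part of cell entry in them was not tested.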

How the data were processed

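The authors deposited log2 intensities per probe set for 8 rat exon arrays. The submitters' processing notes name RMA, Partek and Affymetrix Expression Console but give neither roles nor versions. For the genome build, the sources used here give none. Only arrays are compared within a probe set or gene, and dim probe sets understate a change. Precision is limited by the number of arrays, since arrays have no read depth.

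Of 80939 probe sets, 76186 had 1 gene symbol in the platform annotation, 550 several and 4203 none. The detection filter asked for a log2 value of 3.98 or more, the 25th percentile, on 4 or more arrays, and 58784 probe sets with 1 symbol met it. A gene's value is the mean of its measured probe sets. Genes, probe sets and exon usage (diffSplice F test, at least 3 probe sets) were tested for EAE minus control by limma 3.58.1 (lmFit, eBayes, 2-sided) under R 4.3.3, with Benjamini-Hochberg adjustment over all genes or probe sets. Each array is a separate rat, and no litter or batch is given per rat. Errors of means are SD and those of changes SE. The steps were tested on simulated data. Figures were drawn with matplotlib 3.10.9 in Python 3.11.15.

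The members, gene lists, roles and alternatives were chosen with earlier results of these data known. Named with values per array were factors that rose by at least 1, immediate early factors, and factors past the exon usage test with a probe set differing by at least 1. Other passing factors were named by their change, as were, from each list, up to 3 passing genes in each direction. Values per array beyond this rule (Cebpb, Maf, Jund, Crem, Elf2 and Spib among them) were chosen after they were seen. Alternatives covered the filter, quantile normalization, median centring, the gene summary, a variance trend, array weights, Simes adjustment for exon usage and leaving out each array. A run without EAE 218 and control 195, the arrays of narrowest spread, was added after seeing the data.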

Additional observations from a re-analysis of the deposited data

Results flagged for a closer look

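In 8 of 100 groups of 4 rats (50 factors, EAE and control), the highest or lowest rat lay far from the other 3 by Dixon's test at 95%. Chance gives about 1 in 20 such groups. In EAE rats, Atf2 read 8.38 in rat 218, against 8.59 to 8.62 in the other 3. Creb3l2 read 5.43 in EAE rat 241, against 5.19 to 5.22 in the others, and Runx3 read 4.99 in the same rat, against 4.68 to 4.71. In controls, rat 195 stood apart in 4 of the 5 cases. Its value was 6.66 for Cebpa, against 6.44 to 6.48 in the other controls, and 5.60 for Creb3l4, against 4.81 to 4.91. It was 5.24 for Ier3, against 5.38 to 5.40, and 4.99 for Nfil3, against 5.80 to 5.88. Atf3 read 3.62 in control rat 193, against 4.04 to 4.08 in the other controls. Atf3 and Nfil3 rose in EAE, and both calls held without the rat in question.

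The array of control 195 also had the narrowest spread of all values (SD 2.11, against up to 2.26) and the highest median of olfactory receptor genes in its group (3.86, against 3.26 to 3.45 in the other controls). The part of this in its values was not tested.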

How the results depend on the processing

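Of 9 risen factors, Cebpb, Egr2, Elf1, Ets1, Klf6 and Nfil3 passed in all 16 alternatives run, but sizes moved. Changes ran from 0.50 to 2.26 for Cebpb, from 0.64 to 1.23 for Egr2 and from 0.66 to 1.23 for Nfil3, and that of Myc fell to 0.35 with no filter. The upper ends for Cebpb and Egr2 came from the filter at the 50th percentile. It left only probe sets 6397806 and 6417368 of Cebpb, which met it alone or mainly through the EAE arrays, and only 6344195 of Egr2. With the median of probe sets in place of the mean, Atf3 (0.43, adjusted p 0.248), Maf (0.27, adjusted p 0.228) and Myc (0.61, adjusted p 0.0541) did not pass, which was their only loss where tested. Atf3 had no probe set left with the filter at the 50th percentile, so it could not be tested there and passed in 14 of 15 alternatives. The count of risen factors ran from 6 (median of probe sets) to 12 (filter at the 50th percentile, array weights, and without control 193). Gained rises were Klf4 (1.29), Klf10 (0.60), Spib (1.04) and Nr4a2 (0.61) with the filter at the 50th percentile, Runx1 with no filter (0.37), Elf2 (0.48), Klf4 (0.31) and Nr4a2 (0.39) with array weights, Atf4 (0.54), Elf2 (0.54) and Nr4a2 (0.54) without control 193, and Klf4 without control 195 (0.48) or without the 2 arrays of narrowest spread (0.42). With the filter at the 50th percentile, Klf4, Klf10 and Spib were each left with a single probe set. These probe sets met that filter alone or mainly through the EAE arrays. The count of 0 falls became 2 with the filter at the 50th percentile (Fosl1 and Nr4a3), 1 with quantile normalization, 2 with arrays centred on the median, 1 with the median of probe sets, 6 with array weights (Atf5, Atf7ip2, Creb1, Crem, Fosl1 and Mycn), 1 without the 2 arrays of narrowest spread, and 0 to 1 without each array: 1 without EAE 217, EAE 218, control 193 or control 195. Atf7ip2 was read in part by a probe set that met the main filter through the control arrays alone. Fallen probe sets, 7, became 11 with quantile normalization and 2 to 10 without each array, with 2 without EAE 217, 3 without EAE 241 and 4 without control 194 or control 196. The 15 exon usage calls became 8 with the filter at the 50th percentile, and 11 to 17 without each array. The exon usage call of Egr2 was lost without each of 6 single arrays (all but EAE 218 and control 195, adjusted p up to 0.184) and with Simes adjustment, and that of Nr4a3 without each of 5 (EAE 217, 219 or 241, control 194 or 196, up to 0.114), with Simes adjustment, and with the filter at the 50th percentile (0.463). That of Ets1 was lost without EAE 217 or EAE 241, with Simes adjustment, and with the filter at the 50th percentile (0.340), that of Myc without the 2 arrays of narrowest spread (0.0599), that of Ier5 without EAE 241 or control 196, and that of Atf5 without EAE 217 (0.0615). The causes were not tested.

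Among factors that did not pass, 15 changed sign under some alternative, and none of these values passed. Without a filter the changes were -0.061 for Ier5, -0.029 for Mafk and -0.015 for Nr4a1. With the filter at the 50th percentile they were -0.0039 for Ier5, 0.13 for Ier5l, 0.14 for Jun, 0.10 for Klf15, -0.26 for Mafk, -0.0016 for Nr4a1 and -0.097 for Runx3. Quantile normalization gave -0.019 for Ier5 and -0.023 for Mafk, and centring gave -0.0051 for Ier5, -0.046 for Mafk and -0.032 for Nr4a1. The median of probe sets gave -0.040 for Creb3, 0.054 for Creb3l3, -0.038 for Egr1, 0.027 for Jun, -0.0064 for Klf10 and -0.0025 for Spib. Array weights gave 0.012 for Jun, -0.059 for Mafk, 0.090 for Mycs and -0.032 for Nr4a1. Without the 2 arrays of narrowest spread, changes were -0.022 for Creb3, 0.10 for Egr3, -0.030 for Ier3, 0.016 for Jun and 0.086 for Mycs. Without each array in turn, changes ran from -0.0074 to 0.14 for Creb3, from -0.13 to 0.22 for Ier5, from -0.091 to 0.014 for Ier5l, from -0.10 to 0.047 for Jun, from -0.18 to 0.26 for Mafk and from -0.050 to 0.089 for Nr4a1.

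No paired analysis was possible because the rat numbers are not shared between the groups. Signal over background limits the 6 factors at background in both groups and the 6 at background in 1 group, and the number of rats limits all.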
